A study of Rattus norvegicus with 16 samples.

Results

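Adipokines are signaling proteins that adipose tissue releases into the blood or into its own surroundings. The 9 adipokine genes described here are Adipoq, Lep, Retn, Cfd, Nampt, Rbp4, Rarres2, Apln and Sfrp5. They were listed by name and not by a cut on their measured values, but with earlier results of these data known. They are 9 of the 16678 gene symbols to which probes of the array could be matched, and 13 of its 45598 rat probes carry a RefSeq transcript of one of them. Adipoq, Retn, Cfd, Rbp4 and Sfrp5 had 1 probe each, and Lep, Nampt, Rarres2 and Apln had 2. Where a gene had 2 probes, the one with the higher mean signal in the tissue is given first.

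RNA came from the lung and the adipose tissue of 8 male Brown Norway rats, with 1 array per rat and tissue. The age given was 7 weeks, which the methods state for the rats that were to be sensitized. The age at tissue collection was not stated. The 5 HDM rats received 45 µg of house dust mite allergen in aluminum hydroxide under the skin each week for 3 weeks, followed by 120 µg into the nose on 3 days of each week for another 3 weeks. The 3 control rats had the same injections and nasal doses with saline in place of the allergen, so that aluminum hydroxide was given to both groups. Brown Norway rats are an inbred strain that mounts strong IgE responses, and the lungs after such a course are a model of allergic asthma. The labels do not name the fat depot that was taken. In the plots and in the text a level is the log2 signal of a probe relative to the 75th percentile of its array, so that a level of 0 is the percentile itself.

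Most adipokines are made by fat cells under the control of the fat-cell factors PPARγ and C/EBPα. Adiponectin (Adipoq) favors insulin sensitivity, leptin (Lep) reports fat stores to the brain, and both also act on immune cells. Resistin (Retn) is a fat-cell product in rodents. Adipsin (Cfd) is complement factor D, the protease that starts the alternative complement pathway. Nampt makes a precursor of NAD inside cells and is also secreted as visfatin. Rbp4 carries retinol, chemerin (Rarres2) attracts leukocytes through the receptor Cmklr1, apelin (Apln) acts on vessels through Aplnr, and Sfrp5 binds Wnt5a. In the lung, apelin is made by endothelial cells, and Nampt is made by most cell types.

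The regions upstream of 5 of these genes are shown because Adipoq, Lep and Cfd moved together between lungs, whereas Retn and Apln did not follow them as closely. Of the 9 genes, 8 had an entry in the RefSeq promoter table of the GRCr8 assembly, and Nampt had none. Each sequence runs 5′ to 3′ along the gene, from 250 bases before the start used in that table to 50 bases after it. For 4 of the 5 genes this start lies between 9 and 272 bases inside the outermost annotated start of the gene. Capitals mark matches, on either strand, to 4 short motifs. These were the palindrome TTGCNCAA of the C/EBP family, the CCAAT box, the TATA box (TATAAA) and the GC box (GGGCGG), and no 2 matches overlap in these 5 sequences.
Adipoq (chr11:91240120-91240419, minus strand): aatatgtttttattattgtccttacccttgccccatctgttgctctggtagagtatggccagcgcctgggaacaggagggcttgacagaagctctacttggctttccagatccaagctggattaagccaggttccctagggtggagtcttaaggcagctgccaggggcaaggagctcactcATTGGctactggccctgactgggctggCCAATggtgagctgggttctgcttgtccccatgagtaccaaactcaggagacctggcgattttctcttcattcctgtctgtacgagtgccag
Lep (chr4:58626288-58626587, plus strand): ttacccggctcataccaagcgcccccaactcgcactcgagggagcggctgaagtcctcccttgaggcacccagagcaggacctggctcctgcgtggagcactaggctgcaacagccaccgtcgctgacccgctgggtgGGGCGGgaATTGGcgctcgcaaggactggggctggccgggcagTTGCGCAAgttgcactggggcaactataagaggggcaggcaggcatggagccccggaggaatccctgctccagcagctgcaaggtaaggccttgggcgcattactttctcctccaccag
Cfd (chr7:10465447-10465746, minus strand): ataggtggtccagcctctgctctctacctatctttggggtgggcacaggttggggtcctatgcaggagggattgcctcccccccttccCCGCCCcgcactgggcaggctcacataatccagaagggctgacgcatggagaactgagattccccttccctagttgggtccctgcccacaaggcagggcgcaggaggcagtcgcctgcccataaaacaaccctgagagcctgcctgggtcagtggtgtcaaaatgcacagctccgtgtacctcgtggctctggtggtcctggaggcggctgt
Retn (chr12:6508524-6508823, plus strand): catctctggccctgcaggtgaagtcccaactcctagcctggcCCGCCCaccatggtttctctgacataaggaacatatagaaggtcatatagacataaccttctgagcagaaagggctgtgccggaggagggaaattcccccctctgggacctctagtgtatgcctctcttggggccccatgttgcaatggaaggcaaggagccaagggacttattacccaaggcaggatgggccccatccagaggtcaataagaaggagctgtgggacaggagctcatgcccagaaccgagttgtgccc
Apln (chrX:132091197-132091496, minus strand): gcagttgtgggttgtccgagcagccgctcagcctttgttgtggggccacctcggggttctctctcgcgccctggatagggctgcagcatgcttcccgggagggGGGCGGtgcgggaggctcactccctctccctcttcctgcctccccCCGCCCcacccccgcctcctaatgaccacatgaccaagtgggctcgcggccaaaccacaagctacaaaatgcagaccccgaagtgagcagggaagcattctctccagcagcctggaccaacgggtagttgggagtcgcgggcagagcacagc

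The palindrome was found in Lep, 69 bases before the start, and in none of the other 7 genes with an entry. It was held by 2.61% of all 33469 promoters of the table. The CCAAT box was found in Adipoq, Lep and Sfrp5 and in 37.5% of all promoters. The GC box was found in Lep, Retn, Cfd, Rbp4 and Apln and in 33.1% of all promoters, and TATAAA in Rbp4 and in 14.2% of all promoters. A match describes the letters only and shows no binding.

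The identity of the tissues was checked with cell type markers. The mean level of 12 adipocyte genes, among them Plin1, Fabp4 and Gpd1, was between −3.19 and −0.36 in the lungs. The mean of the 11 of them with a value on all adipose arrays was between 3.55 and 5.11 in adipose tissue. The mean of 6 lung epithelium genes, the surfactant genes among them, had levels of 7.04 to 7.36 in lung, against −4.38 to −3.45 in fat. In the adipose samples of HDM rat 1 and control rat 1, the mean of 9 epididymis genes was 8.83 and 8.80, against −5.72 to −4.09 in the other 6. One of the 9, Lcn5, was also at 4.82 in control rat 3 and at 1.80 in HDM rat 5. The adipose array of HDM rat 2 had 1224 spots that were marked as outliers, against 355 to 444 on the other adipose arrays. Signal strength differed by tissue, with array percentiles of 111 to 240 in fat and 376 to 488 in lung. From 51.0% to 68.8% of probes passed the scanner software's mark for signals well above background. The adipose arrays shared 1 slide and the lung arrays another, with HDM rats 1 to 4 in row 1 and HDM rat 5 beside the control rats in row 2. Precision is limited by the few arrays.

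Across tissues, 8 of the 9 adipokines were lower in lung than in adipose tissue, and Apln was higher. All 9 passed the thresholds used here in the test of the difference within each rat, which were an adjusted p below 0.05 and a fold change above 1.5. Of all 45598 probes, 54.3% passed them, and 39.4% passed them with a lower level in lung. Tissue, slide and scan cannot be told apart, and the differences are averages that weight HDM and control rats equally. Fewer cells of a type and less RNA per cell cannot be told apart in such samples.

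Leptin had a mean level of 6.74 in adipose tissue and −4.87 in lung, where 5 of the 8 arrays were well above background, so that the size of its gap is not fully measured. The difference, lung minus adipose tissue, was −11.72 log2 units (SE 0.67, n = 8 rats, limma adjusted p = 5.94e-06). The second leptin probe was well above background on all 8 adipose arrays and on none of the lung arrays. Adipoq was 534-fold lower in lung (−9.06 log2 units, SE 0.63, adjusted p = 1.57e-05). Its levels had a mean of 8.88 in adipose tissue and −0.08 in lung. Cfd differed 107-fold, Retn 89.3-fold and Rbp4 48.0-fold in the same direction. The gap of Rarres2 was smaller, at 8.68-fold, and it lay in lung at a level of 3.76 on average. The secreted retinol carrier and the chemoattractant were thus both well above background on every lung array.

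By its first probe, Nampt was nearly as high in lung as in adipose tissue, with mean levels of 0.33 and 1.08. The difference of 1.66-fold (−0.73 log2 units, SE 0.10, adjusted p = 0.000485) was lost when each array was scaled to the probes well above background, which gave −0.04 log2 units (adjusted p = 0.785). The second Nampt probe, well above background on all 8 arrays of each tissue, had a wider gap. Its means in HDM and control rats were −1.31 and −0.76 in adipose tissue and −2.84 and −2.80 in lung. Sfrp5, a Wnt inhibitor, was well above background on 5 of 8 arrays in each tissue, and no fold is given for its difference. Apln stood apart, with a mean level of 6.06 in lung and 2.27 in adipose tissue. It was 14.5-fold higher in lung (3.86 log2 units, SE 0.20, adjusted p = 3.48e-06), in 8 of 8 rats.

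The next comparison asked whether the adipokines changed in fat when the airways were exposed to HDM. None of the 9 adipokines passed the thresholds in adipose tissue by limma, and 0 of 9 had an unadjusted p below 0.05. Of all probes 0% were called and 9.9% had an unadjusted p below 0.05. The methods' unpaired test, adjusted here over all 45598 probes, also called 0 of the 9. So did limma with adjustment over the probes past 1.5-fold only, under which 28 of all adipose probes were called. The paper describes a cut at 1.5-fold before its count and reports changed genes in adipose tissue. The HDM and control arrays overlapped for each of the 9 genes, whereas 6.26% of the probes did not overlap. The means differed by more than 1.5-fold for 2 of the 9, Lep and Sfrp5, against 24% of all probes. The log2 changes ran from −1.10 to 0.62 with a median of 0.18, against a median of −0.15 over all probes. Of the 9 genes, 6 had a higher mean in HDM rats and 3 a lower one. The scaling matters for such small values, since scaling to the array median moved the median of all adipose probes to 0.14.

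**Figure D1:**
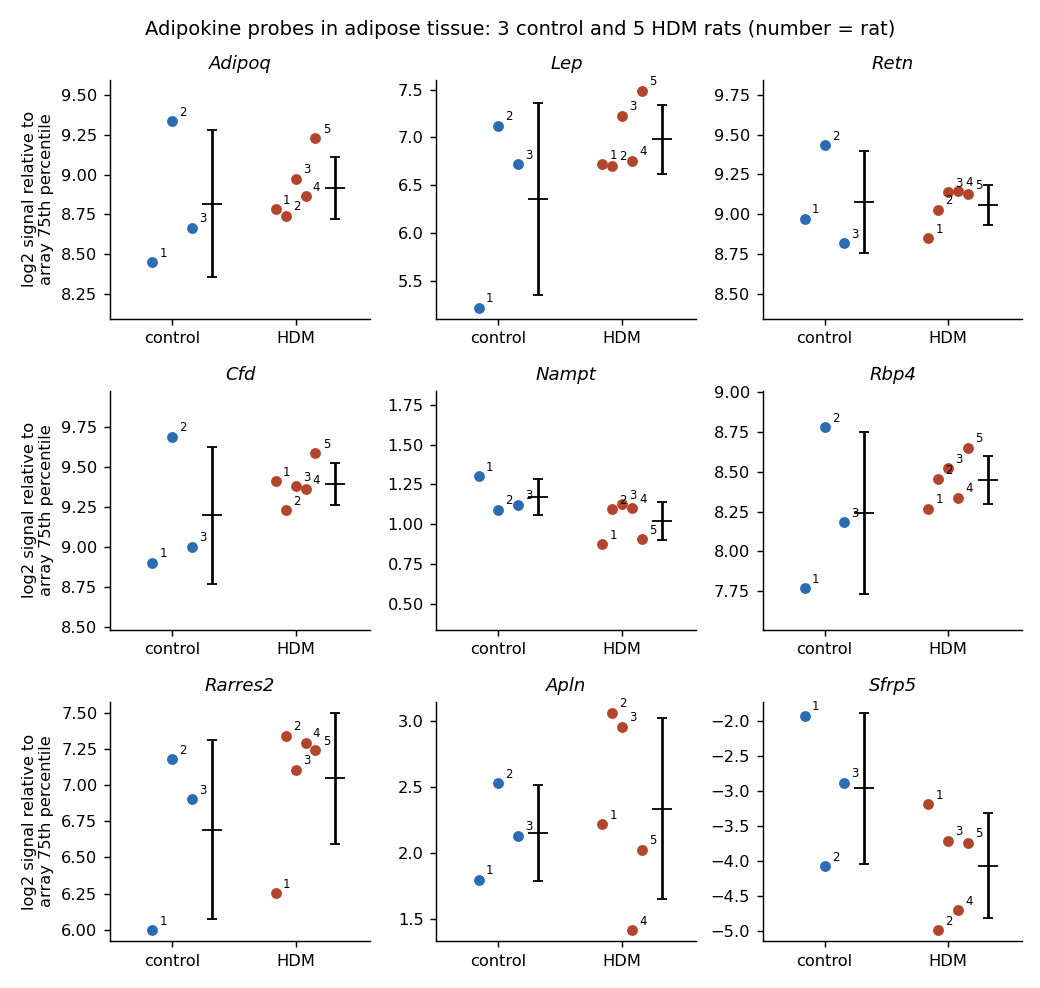
Levels of the brightest probe of each adipokine in adipose tissue (log2 signal relative to the 75th percentile of the array), with 3 control rats in blue and 5 HDM rats in red, numbered by rat. Black marks give the mean and SD of each group, and the 2 groups overlap in all 9 panels. Each panel has its own level axis.

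Adipoq varied over 0.886 log2 units in fat, a wider range than that of 53.7% of the 20356 adipose probes well above background on all arrays. In the HDM rats its level was 8.78, 8.74, 8.97, 8.86 and 9.23, and in the control rats 8.45, 9.34 and 8.67. The lowest and the highest value were both in control rats. The difference of 0.10 log2 units (SE 0.23, adjusted p = 0.889) had a 95% confidence interval from −0.44 to 0.64.

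Leptin varied most among the well-measured adipokines in fat, with a range of 2.27 log2 units that was wider than that of 93.5% of the same probes. Its level in HDM rats was 6.72, 6.70, 7.23, 6.75 and 7.49, and in control rats 5.22, 7.12 and 6.72. Control rat 1 lay far below the other 7 rats. The mean was 0.62 log2 units higher in HDM rats (SE 0.43, interval −0.37 to 1.62, adjusted p = 0.704), but this was 0.06 without control rat 1. With the epididymis marker mean as a covariate, an alternative added after the data had been seen, it was 0.46 (SE 0.35). The second leptin probe had a difference of 0.26 log2 units (SE 0.50).

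Chemerin (Rarres2) was low in the same 2 adipose samples in which the epididymis genes were high. Its level was 6.25, 7.34, 7.11, 7.30 and 7.24 in HDM rats and 5.997, 7.18 and 6.90 in control rats. HDM rat 1 and control rat 1 were the lowest, and the other 6 rats lay within 6.90 to 7.34. These 2 samples were also the lowest for the mesothelium, macrophage and adipocyte marker means. The mesothelium mean was 1.82 and 3.13 in them, against 3.71 to 5.04 in the other 6. The macrophage mean was −1.58 and −1.69, against −1.12 to −0.25. The adipocyte mean was 4.36 and 3.55, against 4.63 to 5.11. Which of these lists goes with the low Rarres2 level was not tested. The difference in Rarres2 was 0.35 log2 units (SE 0.35, adjusted p = 0.819), and 0.17 (SE 0.14) with the epididymis markers as a covariate. Control rat 1 held the lowest of the 8 adipose values for 5 of the 9 adipokines, which were Adipoq, Lep, Cfd, Rbp4 and Rarres2. Its adipocyte marker mean of 3.55 was the lowest too, against 4.36 in HDM rat 1 and 4.63 to 5.11 in the others. Without HDM rats 1 and 2 and control rat 1, again an alternative added after the data had been seen, 0 of 9 adipokines were called. The difference was then 0.24 for Lep and 0.02 for Adipoq.

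**Figure D2:**
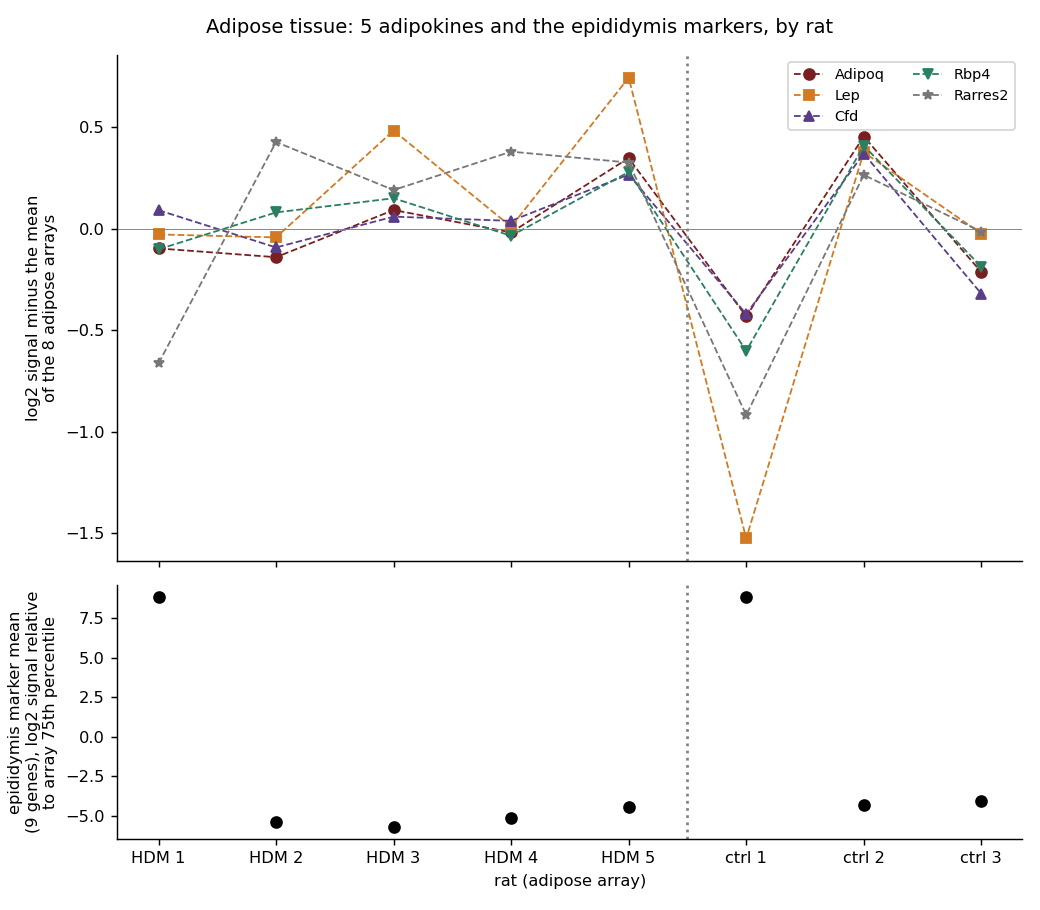
Top, level of 5 adipokines in the adipose tissue of each rat, as the log2 signal minus the mean of the 8 adipose arrays. Bottom, mean level of 9 epididymis genes (log2 signal relative to the 75th percentile). Control rat 1, at 8.80 for the epididymis genes, is the lowest rat for all 5 adipokines, and HDM rat 1, at 8.83, is low for Rarres2.

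The first probes of the remaining adipokines in fat had differences of −0.15 to 0.20 log2 units, apart from Sfrp5. Retn was between 8.82 and 9.44 over the 8 rats, with a difference of −0.02 (SE 0.19, interval −0.45 to 0.41). Cfd was between 8.90 and 9.69 with a difference of 0.20 (SE 0.21), and Rbp4 was between 7.77 and 8.78 with a difference of 0.20 (SE 0.24). The widths of these intervals still allow changes of 1.5-fold in Cfd and Rbp4, whose upper bounds were 0.69 and 0.75 log2 units.

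Nampt had differences of −0.15 (SE 0.15) for the first probe and −0.55 (SE 0.27, adjusted p = 0.555) for the dimmer second probe. Apln was 2.22, 3.06, 2.96, 1.42 and 2.03 in HDM rats and 1.80, 2.53 and 2.13 in control rats. Its HDM values surrounded the control values, and the difference was 0.18 (SE 0.40). Sfrp5 was well above background in 3 of 5 HDM and 2 of 3 control samples. Its levels were −3.19, −4.98, −3.71, −4.70 and −3.74 in HDM rats and −1.93, −4.08 and −2.88 in control rats, with a difference of −1.10 (SE 0.57, adjusted p = 0.578). This difference was −0.22 with normexp background correction and quantile normalization, −0.34 with array weights, −0.58 without control rat 1 and −1.66 without control rat 2.

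The genes whose pattern over the 8 adipose arrays was most like that of Adipoq were Fabp4 (Pearson r = 0.957), Dcaf8, Cfd (0.942), Zfp746 and Rbp4 (0.933). Fabp4 is a fatty acid carrier of fat cells, and 24 of 9929 genes well above background exceeded an r of 0.9. The pattern of Lep was shared more widely, with 323 genes above 0.9. Slc24a3 (0.986), the natriuretic peptide clearance receptor Npr3 (0.983), the growth hormone receptor Ghr (0.981), the cholesterol synthesis enzyme Dhcr7 (0.980) and Kif1c (0.978) led it. These correlations describe 8 arrays that share the low value of control rat 1.

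In the lung the comparison of HDM and control rats also called none of the 9 adipokines, while 0.855% of all probes were called. Retn, Nampt and Apln, 3 of the 9, had an unadjusted p below 0.05, against 10.2% of all probes. The HDM and control lungs did not overlap for Nampt and Apln, both lower in HDM rats, against 9.61% of all probes in either direction. The means differed by more than 1.5-fold for 3 of the 9, Adipoq, Lep and Retn, against 9.47% of all probes. The log2 changes ran from −0.31 to 1.51 with a median of 0.19, against 0.00282 over all probes. The methods' unpaired test, adjusted here over all 45598 probes, called 0 of 9 as well. The paper describes a cut at 1.5-fold before its count of changed genes, and the unpaired test was not run in that order. When limma p-values were adjusted over the probes past 1.5-fold only, 1 of the 9, Retn, was called (adjusted p = 0.0435).

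**Figure D3:**
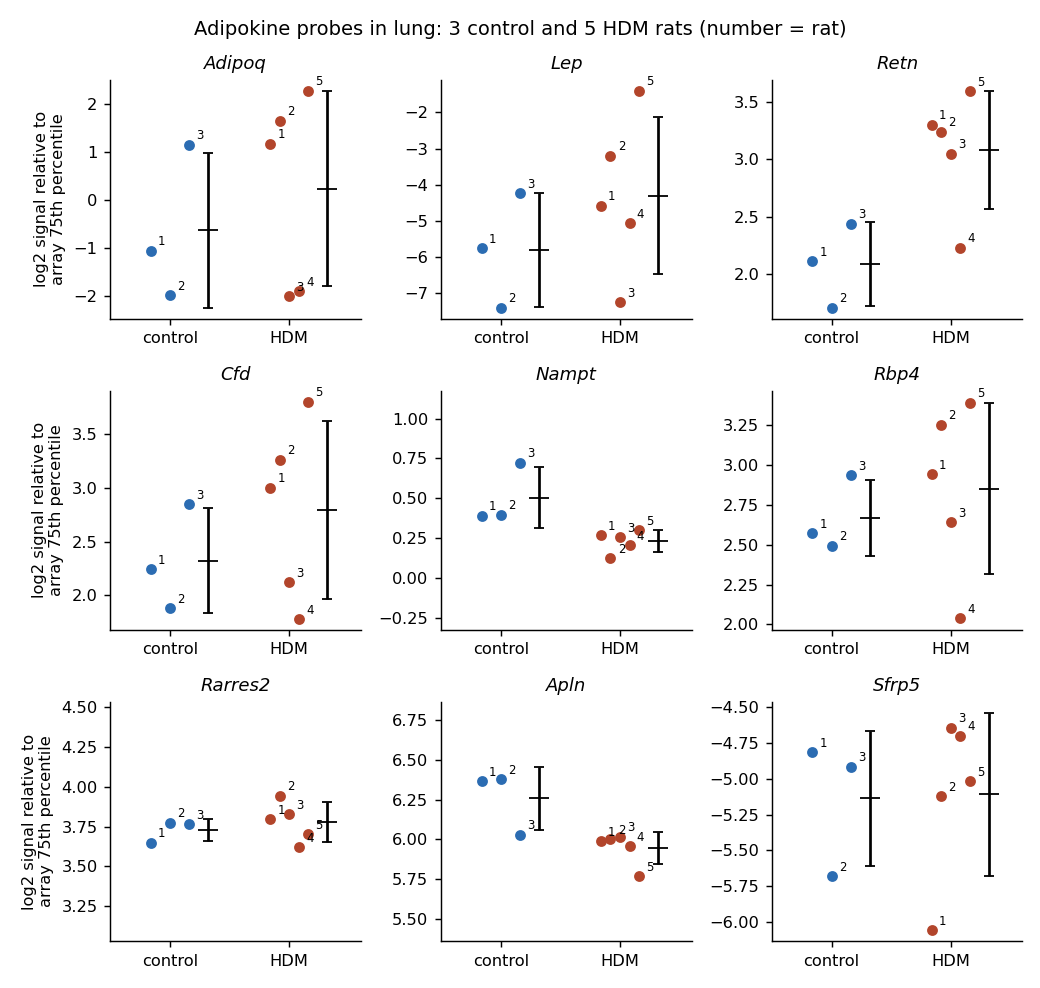
Levels of the brightest probe of each adipokine in lung (log2 signal relative to the 75th percentile of the array), with 3 control rats in blue and 5 HDM rats in red, numbered by rat. Black marks give the mean and SD. HDM and control lungs are apart for Nampt and Apln, whereas Adipoq, Lep, Cfd and Rbp4 are high in HDM rats 1, 2 and 5 and in control rat 3. Each panel has its own level axis.

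Adiponectin mRNA was present in every lung sample but at very unequal levels. The HDM lungs were at 1.18, 1.66, −2.01, −1.90 and 2.29, and the control lungs at −1.06, −1.99 and 1.16. HDM rats 1, 2 and 5 and control rat 3 were high, and the other 4 lungs were low, so that both groups held high and low lungs. The range of 4.29 log2 units was wider than that of 99.9% of the 26540 lung probes well above background on all arrays, whose median range was 0.615. The difference between the groups was 0.87 log2 units (SE 1.22, interval −1.95 to 3.69, adjusted p = 0.945, exact permutation p = 0.589).

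Leptin was well above background in 4 of 5 HDM lungs and 1 of 3 control lungs. The levels were −4.59, −3.20, −7.27, −5.06 and −1.39 in HDM rats and −5.77, −7.42 and −4.24 in control rats. HDM rat 5 was the highest and control rat 2 the lowest. The difference of 1.51 log2 units had an SE of 1.28 and an adjusted p of 0.849. It was 0.38 with normexp background correction and quantile normalization, and ranged from 0.70 without control rat 2 to 2.29 without control rat 3.

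Adipsin and Rbp4 followed the same lungs. Cfd was 3.00, 3.26, 2.12, 1.78 and 3.80 in HDM rats and 2.24, 1.88 and 2.85 in control rats, with a difference of 0.47 (SE 0.47, adjusted p = 0.893). Rbp4 was 2.94, 3.25, 2.64, 2.04 and 3.39 in HDM rats and 2.57, 2.49 and 2.94 in control rats, with a difference of 0.19 (SE 0.31, adjusted p = 0.962). Both ranges were wide, since 97.8% and 91.7% of the lung probes well above background on all arrays varied less.

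Markers of fat cells moved with these genes. The adipocyte marker mean was −1.31, −0.80, −2.99, −2.91 and −0.36 in the HDM lungs and −2.57, −3.19 and −1.15 in the control lungs. HDM rats 1, 2 and 5 and control rat 3 were picked as the 4 lungs with the highest Adipoq level. These lungs held the 4 highest values of Lep, Cfd and Rbp4 too. They also held the 4 highest values of 11 of the 12 adipocyte genes, all except Lipe, against 1.08% of the lung probes well above background on all arrays. That share leaves out dimmer probes. Plin1, Aqp7, Adrb3 and Lep were well above background on 2, 5, 6 and 5 of the 8 lung arrays. The same 4 lungs were the highest for Ucp1, Cidea and Cox8b, 3 of 6 genes listed for brown fat cells, but not for Dio2, Zic1 and Elovl3. Zic1 was lowest in HDM rat 5 (−7.24). Elovl3 was lowest in HDM rat 1 (−5.48) and highest in HDM rat 3 (−3.46). Dio2, Zic1 and Elovl3 were well above background on 1, 4 and 7 of the 8 lung arrays. Ucp1, the uncoupling protein of brown fat, was 2.30, 2.41, −4.08, −6.39 and 2.67 in HDM lungs and −4.66, −5.73 and 1.13 in control lungs. It was well above background in 6 of the 8 lungs. Of the other cell types listed, macrophages, neutrophils, endothelium, mesothelium, muscle and lung epithelium among them, no gene had its 4 highest values in these 4 lungs. The muscle genes still varied in part with them. Their mean was highest in HDM rat 5 (0.22) and control rat 3 (0.19). It was −0.98 in HDM rat 1 and −0.41 in HDM rat 2, and between −1.35 and −0.28 in the remaining lungs.

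**Figure D4:**
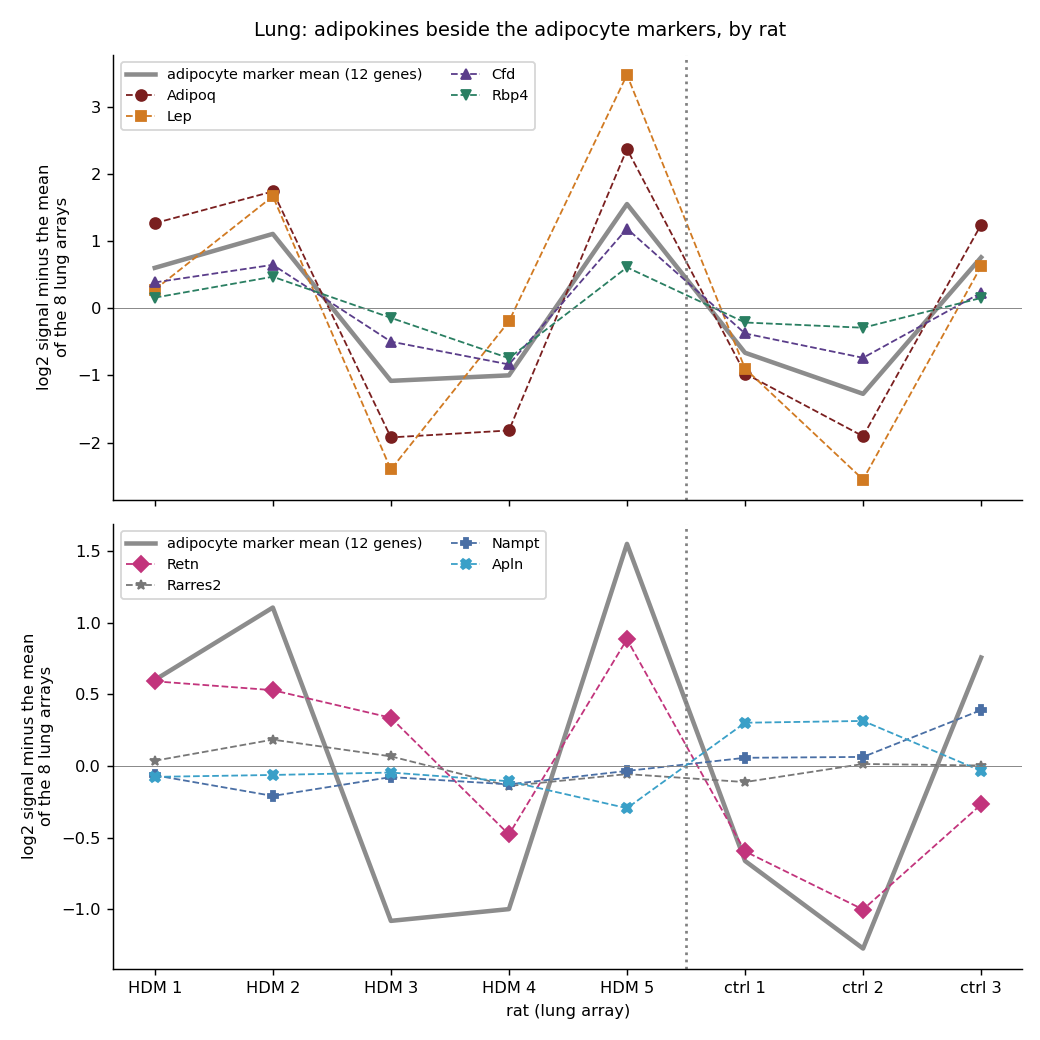
Level of 8 adipokines in the lung of each rat, as the log2 signal minus the mean of the 8 lung arrays, with the mean of 12 adipocyte genes in grey. Top, Adipoq, Lep, Cfd and Rbp4 rise and fall with the adipocyte genes in both groups. Bottom, Retn follows them in part, Nampt and Apln are higher in the control rats, and Rarres2 is nearly flat. The 2 panels have different level axes.

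With the adipocyte marker mean as a covariate, an alternative added after the data had been seen, the difference in Adipoq was −0.16 (SE 0.15), that in Cfd 0.08 (SE 0.16) and that in Rbp4 −0.04 (SE 0.18). The difference in Lep was 0.51 (SE 0.59). Over the 8 lungs Cfd had an r of 0.969 with Adipoq, Rbp4 0.899, Retn 0.712, Rarres2 0.334, Nampt 0.071 and Apln −0.587. The 5 genes most like Adipoq were Alb (0.991), Thrsp (0.987), Car3 (0.984), Fabp4 (0.980) and Gpd1 (0.978), and 56 of 11911 genes exceeded an r of 0.9. Thrsp and Gpd1 act in fat synthesis and Car3 is an abundant carbonic anhydrase of fat and muscle. The values are descriptions of 8 arrays. Whether fat was attached to any of the lungs is not given in the labels and was not tested.

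Resistin had a higher mean in HDM than in control lungs but was not called. The levels were 3.30, 3.24, 3.05, 2.23 and 3.60 in HDM rats and 2.12, 1.71 and 2.44 in control rats. HDM rats 1, 2, 3 and 5 lay above all 3 control rats, and HDM rat 4 lay among them. HDM rat 3 had the lowest Adipoq level of all lungs and a Retn level of 3.05. The difference was 1.00 log2 units (SE 0.31, interval 0.28 to 1.71, unadjusted p = 0.0127 and adjusted p = 0.272 by limma, exact permutation p = 0.0536). With the adipocyte marker mean as a covariate it was 0.78 (SE 0.21, adjusted p = 0.245). Retn was called, with an adjusted p of 0.0435, when limma p-values were adjusted over the probes past 1.5-fold only. That filter used the same difference that was tested, which favors calls. All lung probes called rose from 390 to 1329 with it. Within row 2 of the slide, HDM rat 5 was 1.51 above the mean of the control rats, against 2.92 for Adipoq and 4.42 for Lep.

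The other resistin-like genes are known as products of leukocytes and mucosa. Retnla was 1.16, 1.41, 2.02, 0.79 and 1.38 in HDM lungs and 0.79, 0.17 and 0.92 in control lungs, a difference of 0.73 (SE 0.29, adjusted p = 0.43). Retnlg was 5.68, 4.83, 5.14, 5.69 and 4.92 in HDM lungs and 5.03, 3.41 and 3.03 in control lungs, a difference of 1.43 (SE 0.45, adjusted p = 0.285). Retnlb was not well above background in any lung. None of the 4 genes of the family was called, and their median change was 0.86 against 0.00282 over all probes. The mean of 10 neutrophil genes, which include Retnlg, was between 0.77 and 1.27 in HDM lungs and between −1.79 and −1.34 in control lungs, and 7 of the 10 were called higher, against 0.855% of all lung probes in either direction. The part of neutrophils in the Retn level was not tested.

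Nampt and Apln went the other way. The first Nampt probe was at 0.27, 0.12, 0.26, 0.21 and 0.30 in HDM lungs and at 0.39, 0.40 and 0.72 in control lungs. All 5 HDM lungs lay below all 3 control lungs, with a difference of −0.27 log2 units (SE 0.11, unadjusted p = 0.0449 and adjusted p = 0.469 by limma). The exact permutation p was 0.0179, the smallest that 56 splits of 8 rats can give. The second probe overlapped, with a difference of −0.04 (SE 0.28), and the mean of both probes differed by −0.16 with an adjusted p of 0.861.

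Apelin mRNA was at 5.99, 6.002, 6.02, 5.96 and 5.77 in HDM lungs and at 6.37, 6.38 and 6.03 in control lungs. The groups were apart, but HDM rat 3 and control rat 3 differed by little. The difference was −0.31 (SE 0.12, unadjusted p = 0.0352 and adjusted p = 0.429 by limma, exact permutation p = 0.0179). The second Apln probe had a difference of −0.34 (SE 0.13), without HDM rat 4, whose spot was marked as an outlier. Within row 2 of the slide HDM rat 5 was −0.49 from the control mean for Apln and −0.20 for Nampt. With the adipocyte marker mean as a covariate the differences were −0.26 (SE 0.12) for Apln and −0.30 (SE 0.12) for Nampt.

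Rarres2 was the steadiest adipokine in lung, at 3.62 to 3.94 in HDM rats and 3.65 to 3.77 in control rats, and 10.97% of the lung probes well above background on all arrays varied less. The difference was 0.05 (SE 0.11, interval −0.20 to 0.30), and 0.19 (SE 0.10) for the second probe. Sfrp5 was well above background in 3 of 5 HDM and 2 of 3 control lungs. Its difference was 0.03 (SE 0.35).

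**Figure D5:**
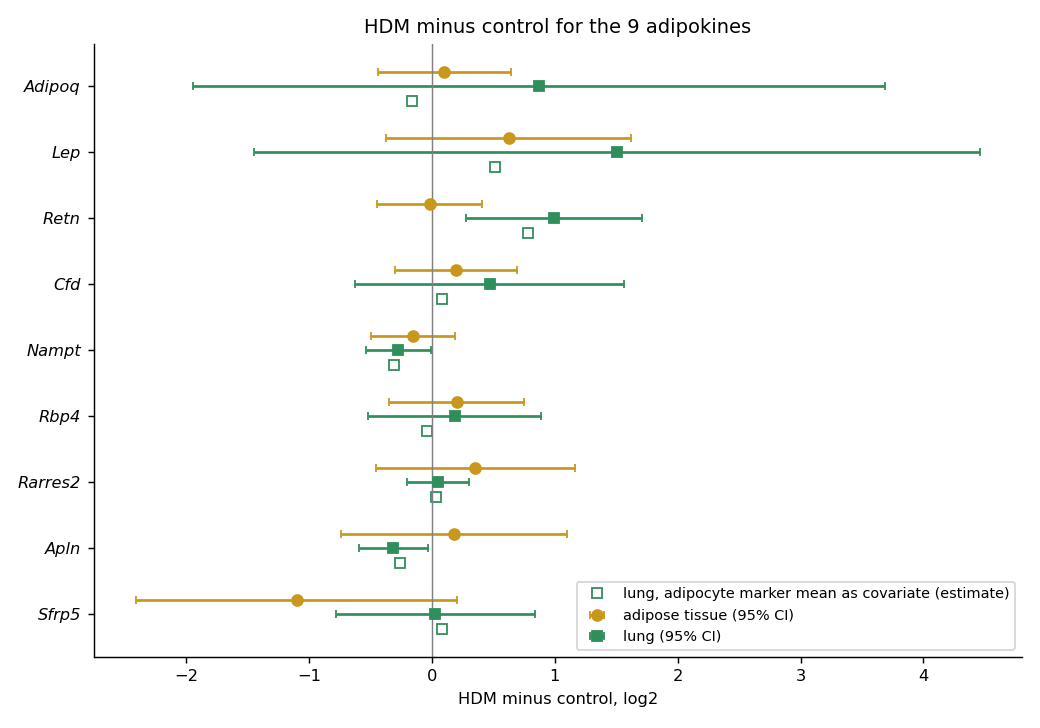
HDM minus control for the 9 adipokines on the log2 scale, with 95% confidence intervals, in adipose tissue (circles) and lung (filled squares), and the lung estimate with the adipocyte marker mean as a covariate (open squares). The lung intervals of Adipoq and Lep are the widest, and those of Retn, Nampt and Apln exclude 0 before adjustment over all probes.

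Whether the change in lung differed from the change in fat was tested within each rat. None of the 9 adipokines passed (1 of all 45598 probes, or 0.00219%, did), and 1 of 9 had an unadjusted p below 0.05, against 7.74% of all probes. That one was Retn, whose change was 1.01 log2 units more positive in lung than in fat (SE 0.42, unadjusted p = 0.0422 and adjusted p = 0.632 by limma, exact permutation p = 0.0714). For Adipoq the change differed by 0.77 (SE 1.27) and for Apln by −0.49 (SE 0.40).

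The receptors and binding partners of the adipokines were measured beside them. None of 13 was called in either tissue. In lung 3 of the 13 had HDM values wholly below the control values, against 4.97% of all probes. The chemerin receptor Cmklr1 was −0.46, −0.28, −0.49, 0.03 and −0.60 in HDM lungs and 0.49, 0.38 and 0.27 in control lungs, a difference of −0.74 log2 units (SE 0.16, limma adjusted p = 0.097). The other 2 were the insulin receptor Insr at −0.42 (SE 0.20) and the adiponectin receptor Adipor2 at −0.22 (SE 0.10). The median change of the 13 was −0.22 in lung and 0.19 in adipose tissue.

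Among 9 regulators of adipokine genes, Klf15 and Klf9 were called in lung, against 0.855% of all lung probes, and none in adipose tissue, against 0% of all adipose probes. Klf15, a Krüppel-like factor that promotes fat cell genes and is induced by glucocorticoids, fell by 1.57 log2 units (SE 0.12, limma adjusted p = 0.00152). It was between 1.71 and 2.11 in HDM lungs and between 3.46 and 3.56 in control lungs. Klf9 fell by 1.25 (SE 0.17, adjusted p = 0.0235). Pparg, an activator of Adipoq in fat cells, was between 1.71 and 2.04 in HDM lungs and between 2.26 and 2.45 in control lungs, a difference of −0.49 (SE 0.11, adjusted p = 0.119) that was not called. The median over the 9 was −0.37 in lung and 0.13 in adipose tissue.

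Of 9 genes of the alternative complement pathway, in which Cfd acts, 1 was called in lung, against the same 0.855% of all lung probes, and none in adipose tissue. Cfp, properdin, which stabilizes the convertase of that pathway and is stored in neutrophils, rose by 0.85 log2 units (SE 0.14, limma adjusted p = 0.0402). It was between 0.58 and 0.86 in HDM lungs and between −0.29 and 0.14 in control lungs. The anaphylatoxin receptor C5ar1 was 0.63 higher (SE 0.16, adjusted p = 0.16), and for these 2 genes all HDM lungs lay above all control lungs, as for 4.65% of all probes. All 9 had a higher mean in HDM lungs, with a median of 0.22.

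None of 8 NAD salvage genes around Nampt was called. In lung the difference was −0.34 (SE 0.12) for Nmnat1, −0.25 (SE 0.10) for Parp1 and 0.19 (SE 0.09) for Naprt, each with HDM and control values apart, as for 9.61% of all lung probes in either direction, and adjusted p between 0.344 and 0.538. None of 11 retinol handling genes around Rbp4 was called in either tissue or had separate groups, and their medians were −0.13 in lung and 0.04 in adipose tissue. Of 15 other secreted factors of fat, none was called, against 0.855% of all lung probes and 0% of all adipose probes. Ccl2, a chemokine for monocytes, was 1.17 higher in HDM lungs (SE 0.31, limma adjusted p = 0.185). It was 1 of the 15 with all HDM lungs above all control lungs, as for 4.65% of all lung probes. Among the adipocyte genes, the β3-adrenergic receptor Adrb3 was the one with separate groups in adipose tissue, at 4.28 to 5.95 in HDM rats and 3.40 to 3.91 in control rats (difference 1.28, SE 0.36, adjusted p = 0.355), as 1.54% of all probes were apart in that direction.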

How the data were processed

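The label of each of the 16 arrays gave its rat and tissue. The authors deposited spot intensities on a linear scale from Agilent Feature Extraction 12.0.3.1, already background-subtracted, with flags for outlying, saturated and clearly detected spots, and no normalization between arrays. They also deposited a table of log2 values made in GeneSpring GX, whose values match the 75th-percentile scaling centered on each probe and tissue. Here control and outlier spots were left out, log2 intensities of spots sharing a probe were averaged, and each array's 75th percentile was taken off. No spot of a member was saturated.

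HDM and control rats were compared in each tissue using lmFit and eBayes of limma 3.58.1 (R 4.3.3). The Benjamini–Hochberg adjustment ran over 45598 probes, and called probes had an adjusted p below 0.05 with a fold change above 1.5. Differences between tissues were fitted on the lung minus adipose difference of each rat, paired by the labels. The deviations from the group mean in the lung and adipose arrays of a rat had correlations of only −0.10 to 0.11. Exact permutation tests were two-sided. The fits were tested on simulated data.

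Probes were named through RefSeq accessions and a table of 47357 rat genes (GRCr8). All 9 members, each called list gene and, per list and tissue, up to 4 genes whose groups did not overlap were named, besides the 5 genes most like Adipoq or Lep. A gene of these lists is not reported here. The members and lists were chosen with earlier results of these data known. Cell type lists of neutrophils, eosinophils, macrophages, mesothelium, endothelium, B and T cells, muscle, lung epithelium, epididymis, adipocytes and brown adipocytes were used as levels. Replicate numbers name different animals in the 2 groups. The correlation of same-numbered rats was 0.59, 0.14 and 0.10 in adipose tissue and −0.06, −0.08 and 0.05 in lung, so they were not used as pairs. Alternatives were other scalings, tests, filters, weights, blocks and left-out rats. The rats were separate animals, so p-values measure the spread between rats. Plots were made in Python 3.11.15 with matplotlib 3.10.9.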

Additional observations from a re-analysis of the deposited data

Results flagged for a closer look

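Of 18 sets of 5 HDM rats, 9 adipokines in each tissue, 2 had a rat far from the other 4 by Dixon's criterion, where chance gives about 1 in 20. Rarres2 in the adipose tissue of HDM rat 1 was at 6.25, against 7.11 to 7.34 in the other HDM rats. The epididymis marker mean of that sample was 8.83, against −5.72 to −4.43 in the other HDM rats, and its part in the low value was not tested. Apln in the lung of HDM rat 5 was at 5.77, against 5.96 to 6.02 in the other HDM rats. HDM rat 5 also had the highest lung levels of Adipoq (2.29), Lep, Retn, Cfd and Rbp4, and it was the HDM rat that shared row 2 of the slide with the control rats.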

How the results depend on the processing

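No adipokine was called in adipose tissue or in the test between tissues under any alternative run. In lung the count was 1 when p-values were adjusted over the probes past 1.5-fold only (Retn), and 0 otherwise. When single rats were left out the counts ranged from 0 to 0 in adipose tissue, in lung and in the test between tissues, and from 9 to 9 for the level in lung against adipose tissue. That last count was 8 with scaling to the probes well above background, where Nampt was lost (−0.04), and 8 with dim probes left out, where Sfrp5 had no value. With the replicate block, which uses numbers that do not pair the rats, 0 adipokines were called in either tissue, and Retn in lung was 1.11 (adjusted p = 0.312). The slide row as a block leaves HDM rat 5 against the 3 control rats, since row 1 held HDM rats only. Values with the slide row block are thus given as effect sizes that rest on 1 HDM rat. The count of all lung probes called fell from 390 to 0 with the replicate block. It was 1329 with adjustment over the probes past 1.5-fold only, 751 with dim probes left out, 705 with array weights, 166 when lung and fat were fitted in one model, 194 with the adipocyte markers as a covariate and 41 without HDM rat 1 and control rat 1. With single rats left out it was 100, 125 and 175 without control rats 2, 1 and 3, 161, 163 and 210 without HDM rats 2, 1 and 5, and 285 and 333 without HDM rats 4 and 3. In adipose tissue the count of all probes called, 0 as reported, was 338 with array weights, 106 in the one model for lung and fat, 28 with adjustment over the probes past 1.5-fold only and 0 to 7 under the other alternatives.

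Small differences changed sign, and none of them had been called. The cause was not tested. In adipose tissue Retn was 0.28 with median scaling, 0.00944 with scaling to Gapdh and Hprt1, 0.13 with quantile normalization, 0.14 with normexp and quantile normalization, 0.051 with the slide row as a block and 0.00978 without HDM rats 1 and 2 and control rat 1. With single rats left out Retn ranged from −0.15 to 0.16, Adipoq from −0.083 to 0.36 and Rbp4 from −0.036 to 0.47. Nampt was 0.14 with median scaling. Array weights gave −0.15 for Adipoq, −0.073 for Cfd, −0.11 for Rbp4 and −0.30 for Apln. Apln was −0.13 with the slide row as a block and −0.20 without the 3 rats named, and Adipoq was −0.0499 without HDM rat 1 and control rat 1.

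In lung Rarres2 was −0.00244 with median scaling and −0.025 with the slide row as a block. Sfrp5 was −0.023 with median scaling, −0.069 with quantile normalization, −0.012 with normexp, −0.11 with array weights and −0.14 with the replicate block, and ranged from −0.24 to 0.27 with single rats left out. Adipoq was −0.16 and Rbp4 −0.037 with the adipocyte markers as a covariate. For the change in lung minus that in adipose tissue, Cfd was −0.073 with median scaling and Rbp4 0.074 with scaling to probes well above background. With single rats left out, these differences ranged from −0.37 to 0.17 for Rbp4, −0.53 to 0.00299 for Rarres2, −0.17 to 1.74 for Adipoq, −0.31 to 1.69 for Lep, −0.19 to 0.64 for Cfd and −0.24 to 0.011 for Nampt. Without HDM rat 4, Retn in lung was 1.21 with an adjusted p of 0.0732, and without control rat 2 it was 0.81 with an adjusted p of 0.699. Leptin in lung and Sfrp5 in both tissues were near background, which limits what their values can show.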
